A study of Homo sapiens with 12 samples.

Results

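TRA2A, TRA2B, DDX5 and DDX17 form 2 pairs of paralogous splicing regulators, and their mRNAs were followed between nucleus and cytoplasm in cells given wild-type or mutant SF3B1. The genes were chosen by symbol, 4 of the 67049 gene IDs counted in every library, and all 4 were among the 20394 genes tested. They were proposed with results of these libraries already known, and the rule names their cytoplasm-to-nucleus ratio. Their values below are therefore a description, and calls made with them are no independent support.

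SF3B1 is a core protein of the U2 small nuclear ribonucleoprotein, which recognises the branch point of introns, and K700E is its most frequent substitution in cancer. HEK293T, a human embryonic kidney line carrying SV40 large T antigen, received the plasmid pIRES2-SF3B1 WT or pIRES2-SF3B1 K700E with Lipofectamine 2000 and was collected after 48 h. All cells kept their own SF3B1 genes, and no untransfected or empty-vector cells are among the libraries, so K700E was compared with added WT protein. The 4 groups were WT nucleus, WT cytoplasm, K700E nucleus and K700E cytoplasm, with 3 libraries each, and by its title the study asked whether the mutation impairs export of mRNA from the nucleus.

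TRA2A and TRA2B are serine- and arginine-rich RNA-binding proteins that bind AGAA-type sequences and promote the use of the exons that hold them. Both genes carry an ultraconserved "poison" exon, whose inclusion by TRA2 proteins stops production of full-length protein and so limits their own amount. DDX5 (p68) and DDX17 (p72) are DEAD-box RNA helicases that remodel RNA structure during splicing, work with the Drosha microprocessor on primary microRNAs and act as transcription co-regulators. Each is known to affect the level of the other, and both genes give rise to transcripts that keep introns.

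The sequences that matter for telling the paralogs apart, and for their known self-control, are given first. All genes lie on the minus strand of GRCh38 in GENCODE 29: TRA2A (ENSG00000164548.11) at chr7:23504780-23532041, TRA2B (ENSG00000136527.18) at chr3:185915906-185938136, DDX5 (ENSG00000108654.16) at chr17:64499616-64508199 and DDX17 (ENSG00000100201.23) at chr22:38483440-38507660. The longest run of identical coding bases between paralogs, in capitals with 20 bases on each side, was 14 bases for the TRA2 pair and 26 bases for the DDX pair. The first 2 windows cross introns, so their spans of chr7:23507487-23512898 and chr3:185922078-185923800 are longer than the printed sequence, and the other 2 lie at chr17:64503020-64503085 and chr22:38494724-38494789.
TRA2A-201: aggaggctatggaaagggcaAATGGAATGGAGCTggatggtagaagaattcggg
TRA2B-205: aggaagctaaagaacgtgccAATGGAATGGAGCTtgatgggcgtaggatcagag
DDX5-210: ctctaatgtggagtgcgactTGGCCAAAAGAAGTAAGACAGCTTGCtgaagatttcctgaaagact
DDX17-212: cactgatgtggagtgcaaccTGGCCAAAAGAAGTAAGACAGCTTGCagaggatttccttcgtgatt
Over the aligned coding bases identity was 68.6% for TRA2A and TRA2B and 70.6% for DDX5 and DDX17. No stretch of 50 bases was shared by any annotated transcripts of a pair, so a read matching over 50 bases or more has 1 source among the paralogs. The only annotated gene named after a member, the processed pseudogene DDX5P1, had 3 counts in all 12 libraries together.

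The alternative exon of each TRA2 gene, taken as the longest internal exon of an annotated coding or decay-prone transcript outside the main coding transcript, was rich in AGAA. In TRA2A it spans chr7:23522132-23522432 (301 bases, transcript TRA2A-211) and holds 13 AGAA, or 43.2 per kilobase. In TRA2B it spans chr3:185931577-185931852 (276 bases, transcript TRA2B-206, annotated for nonsense-mediated decay) and holds 12, or 43.5 per kilobase. The first listed coding transcripts of 19684 genes held 7.77 per kilobase. The 30-base window with most AGAA of each exon, at chr7:23522183-23522212 and chr3:185931643-185931672, has the motif in capitals. The motif was searched on the transcript strand with overlaps allowed.
TRA2A-211: aaactcaatgaAGAAtgaagAGAAgtAGAA
TRA2B-206: tgaaAGAAgtcAGAAtttgaaacggaAGAA
Each window holds 3 AGAA, and 0.325% of the 2031500 adjoining 30-base windows of those coding transcripts hold as many or more. The window was picked as the densest of its exon, so that share describes the sequence only. The counts are sums over a whole gene, and use of the poison exon was not analysed here.

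DDX5 also hosts microRNA genes, MIR3064 and MIR5047, whose mature sequences from RefSeq (GRCh38.p14) are shown with the seed, bases 2 to 8, in capitals. They lie at chr17:64500775-64500797, chr17:64500817-64500837 and chr17:64501230-64501250, all on the minus strand, as DDX5.
hsa-miR-3064-3p: uUGCCACAcugcaacaccuuaca
hsa-miR-3064-5p: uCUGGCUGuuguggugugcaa
hsa-miR-5047: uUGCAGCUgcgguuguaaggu
The 3 seeds differ from each other. Both microRNA genes had 0 counts in all 12 libraries, although DDX5 itself, which covers them, had 4505 to 29076 counts per library. How reads over such nested genes were assigned is not given in the sources used here.

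Annotation limits what a gene count can say about these mRNAs. GENCODE lists 12, 16, 35 and 12 transcripts for TRA2A, TRA2B, DDX5 and DDX17, of which 4, 8, 11 and 4 are retained-intron transcripts and 1, 1, 3 and 1 are targets of nonsense-mediated decay. Among the 13901 protein-coding genes tested, 31.7% have at least 1 transcript of both types and 17.2% have 4 or more retained-intron transcripts. With those transcripts included, exons cover 12.9% of the TRA2A gene, 52.9% of TRA2B, 86.1% of DDX5 and 41.3% of DDX17, so a gene count can hold reads from introns. CEP95, on the opposite strand, shares 506 exonic bases with DDX5, 6.85% of them, and KDELR3 shares 8 bases with DDX17. The labels do not say whether strand was used in counting, so reads from these shared bases cannot be assigned to 1 gene.

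Libraries held 9086743 to 11200562 counts in the nucleus and 13422598 to 18116929 in the cytoplasm. Levels are in CPM, the usual unit of counts relative to the library total, here scaled between libraries with TMM factors unless said otherwise. A level is therefore relative to the RNA of its own fraction. How much RNA each fraction held is not in the labels, so levels do not show which fraction held more molecules of an mRNA. SF3B1, whose count sums endogenous and plasmid RNA, was at 1577 ± 784 CPM (SD, n = 3) in WT nuclei, 1600 ± 500 in K700E nuclei, 9430 ± 1061 in WT cytoplasm and 7924 ± 882 in K700E cytoplasm. A gene count cannot separate K700E from WT RNA. All 8 HEK293 markers had counts in every library, CD3E had none, and PTPRC, HBB, HBA1, COL1A2 and DCN had at most 4 in any library. Summed nuclear-retained RNAs (6 genes, such as MALAT1) took 3191 to 10380 CPM of the unscaled library total in nuclei and 127 to 166 in cytoplasm. Nuclear library 1 of both constructs stood apart in that sum, at 3613 (WT) and 3191 (K700E) against 7859 to 10380 in the other 4. In libraries numbered 2 of the nucleus and 3 of the cytoplasm, levels ran with the GC content of transcripts, by 0.55 (WT nucleus 2), -0.43 (K700E nucleus 2), 0.22 (WT cytoplasm 3) and 0.30 (K700E cytoplasm 3) log2 units per 10 percentage points, against -0.19 to 0.01 in the others. Whether the libraries of 1 group are separate cultures is not in the labels, so p-values measure only how far these libraries spread, and in bulk RNA fewer cells expressing a gene and less RNA per cell cannot be told apart.

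TRA2A had a higher level in the nucleus than in the cytoplasm. Its nuclear levels were 379, 406 and 512 CPM in WT libraries 1, 2 and 3 (432 ± 70.5, SD, n = 3) and 425, 819 and 624 CPM in K700E libraries (623 ± 197). In the cytoplasm they were 304, 280 and 257 CPM with WT (280 ± 23.4) and 206, 195 and 202 CPM with K700E (201 ± 5.50). Every nuclear library lay above every cytoplasmic library of the same construct. K700E nuclei overlapped with WT nuclei, K700E library 2 being the highest of all, whereas the 3 K700E cytoplasmic libraries all lay below the 3 WT ones.

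TRA2B had the opposite distribution and was the only one of the 4 with a higher level in the cytoplasm. Nuclear levels of 329, 266 and 250 CPM with WT (282 ± 42.0, SD, n = 3) and 293, 332 and 232 CPM with K700E (286 ± 50.3) covered the same range. Cytoplasmic levels were 610, 542 and 562 CPM with WT (572 ± 35.1) and 370, 387 and 406 CPM with K700E (388 ± 18.4). The K700E cytoplasmic libraries were all below the WT ones and above the nuclear ones of their own construct.

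DDX5 showed the widest spread among WT nuclei of the 4 genes. Those libraries gave 2277, 722 and 1147 CPM (1382 ± 803, SD, n = 3), with library 1 far above the others and library 2 below all WT cytoplasmic libraries. K700E nuclei gave 2008, 1616 and 1576 CPM (1734 ± 238). In both constructs the highest DDX5 was in nuclear library 1, the libraries with the lowest sum of nuclear-retained RNAs (3613 and 3191 CPM), and the part of that makeup in the DDX5 results was not tested. Cytoplasmic levels were 889, 826 and 805 CPM with WT (840 ± 43.8) and 386, 537 and 473 CPM with K700E (465 ± 76.1). With WT the fractions overlapped, with K700E they did not, and in the cytoplasm all K700E libraries were below all WT ones.

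DDX17 had the lowest ratio of cytoplasmic to nuclear level of the 4 mRNAs, with either construct. Its nuclear levels were 2789, 1454 and 2504 CPM with WT (2249 ± 703, SD, n = 3) and 2925, 3000 and 3109 CPM with K700E (3011 ± 92.5). In the cytoplasm it was at 665, 596 and 515 CPM with WT (592 ± 74.8) and at 310, 467 and 391 CPM with K700E (389 ± 78.4). K700E libraries were all above the WT ones in the nucleus and all below them in the cytoplasm, the only member for which both held.

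**Figure D1:**
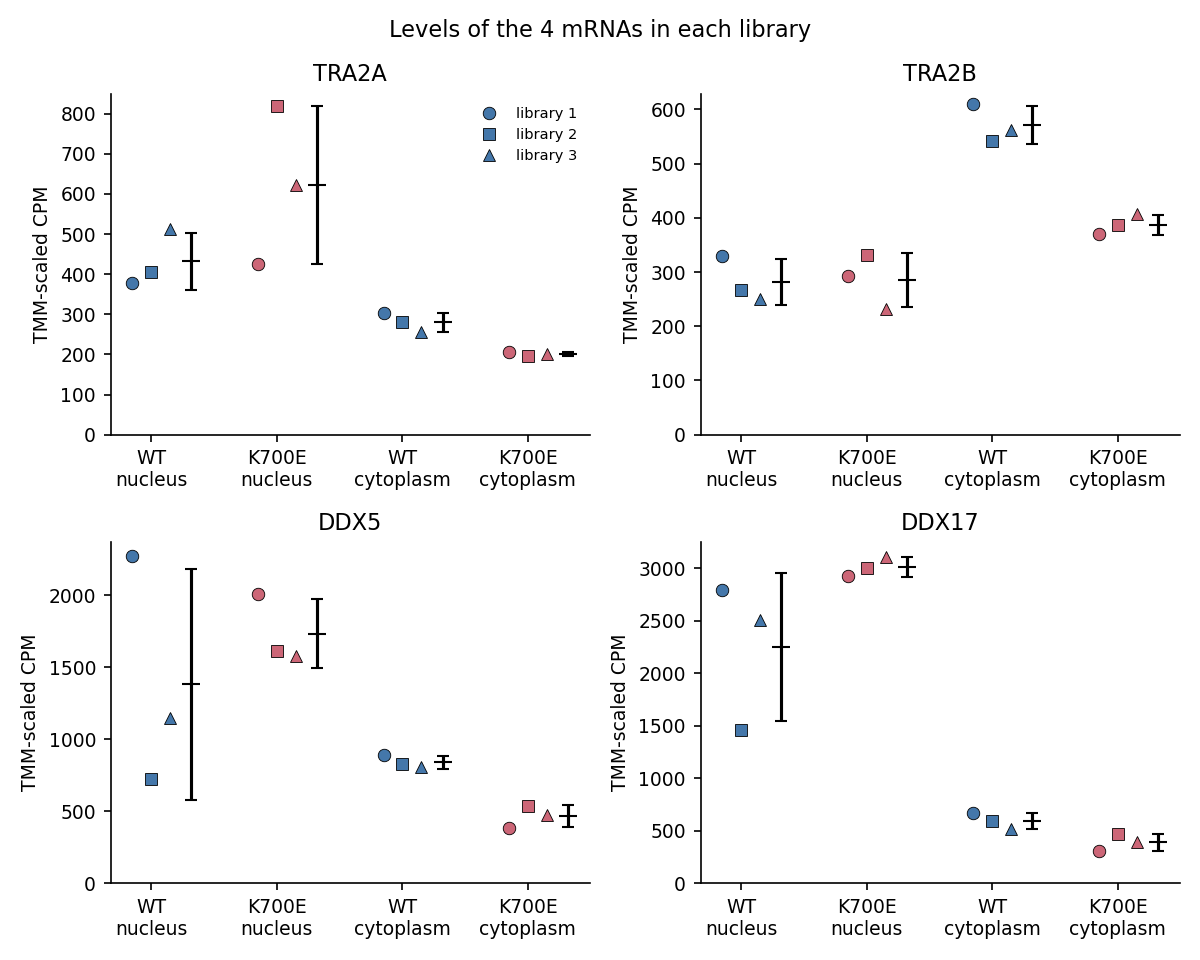
TMM-scaled CPM of TRA2A, TRA2B, DDX5 and DDX17 (y axis, from 0, 1 panel per gene) in the 4 groups (x axis), WT in blue and K700E in red, with a symbol for each library and the mean and SD in black. In the cytoplasm the 3 K700E points lie below the 3 WT points in every panel, from 195 to 206 CPM against 257 to 304 CPM for TRA2A, and WT nuclei of DDX5 spread from 722 to 2277 CPM.

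Levels of different genes were compared per kilobase, on the scale of CPM per kilobase of coding sequence. In WT nuclei the order was DDX17 (1026 ± 321), DDX5 (750 ± 436), TRA2A (511 ± 83.4) and TRA2B (326 ± 48.6), and DDX5 did not differ from either neighbour beyond its spread. In WT cytoplasm it was TRA2B (662 ± 40.7), DDX5 (456 ± 23.8), TRA2A (331 ± 27.7) and DDX17 (270 ± 34.1), the last 2 lying within their combined SDs. With K700E the nuclear order was the same, with DDX17 at 1373 ± 42.2, DDX5 at 941 ± 129, TRA2A at 736 ± 232 and TRA2B at 331 ± 58.2, where DDX5 and TRA2A lay within their SDs. So was the cytoplasmic order, with TRA2B at 449 ± 21.3, DDX5 at 253 ± 41.3, TRA2A at 238 ± 6.50 and DDX17 at 177 ± 35.7, where DDX5 and TRA2A could not be separated. Per kilobase of all annotated exons the nuclear order with WT was the same, but the cytoplasmic order became DDX5 (114 ± 5.93), TRA2A (79.7 ± 6.66), DDX17 (59.2 ± 7.48) and TRA2B (48.6 ± 2.98). The union of TRA2B exons is 11769 bases, and its place in the cytoplasm rested on the length used.

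With WT SF3B1, 4 of 4 genes differed between cytoplasm and nucleus in the edgeR quasi-likelihood test (adjusted p under 0.05 over all genes), where 67.1% of all genes tested did. DDX17, with the lowest cytoplasm-to-nucleus ratio of the 4 genes, was 3.80-fold lower in the cytoplasm (log2 -1.93 ± 0.25, SE, adjusted p = 6.41e-06), and TRA2A was 1.54-fold lower (log2 -0.63 ± 0.23, adjusted p = 0.0230). TRA2B was 2.03-fold higher in the cytoplasm (log2 1.02 ± 0.20, adjusted p = 0.000300). DDX5 was 1.64-fold lower (log2 -0.72 ± 0.31, adjusted p = 0.0479), although its libraries overlapped. Of all genes 40.0% were called lower and 27.1% higher in the cytoplasm, and 40.4% and 29.7% had fractions that did not overlap. The median log2 difference was -0.40 over all genes and 0.13 over the 13901 protein-coding ones, to which the members belong.

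The DDX5 and TRA2A calls with WT were close to the threshold. Without WT nuclear library 1 the DDX5 log2 difference was -0.10 (adjusted p = 0.734), and its call also ended without WT nuclear library 3 or any single WT cytoplasmic library. With both nuclear libraries numbered 1 left out, a choice made after seeing the data, DDX5 was at -0.10 (adjusted p = 0.720), while TRA2A (-0.66), TRA2B (1.20) and DDX17 (-1.69) passed. The TRA2A call ended without WT nuclear library 3 (log2 -0.43, adjusted p = 0.144), WT cytoplasmic library 2 (-0.61, adjusted p = 0.0674) or WT cytoplasmic library 3 (-0.55, adjusted p = 0.0875).

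With K700E, 3 of 4 genes passed the same test, against 65.9% of all genes tested. TRA2A was 3.10-fold lower in the cytoplasm (log2 -1.63 ± 0.23, SE, adjusted p = 1.67e-05), DDX5 was 3.73-fold lower (log2 -1.90 ± 0.32, adjusted p = 7.42e-05) and DDX17 was 7.74-fold lower (log2 -2.95 ± 0.26, adjusted p = 1.50e-07). All K700E cytoplasmic libraries lay below all K700E nuclear ones for these 3. Without both nuclear libraries 1 the DDX5 difference was -1.74 (adjusted p = 2.12e-05). TRA2B had 1.36 times its nuclear level in the cytoplasm (log2 0.44 ± 0.20, adjusted p = 0.0584) and did not pass, although its libraries did not overlap. Of all genes 37.9% were called lower and 28.1% higher, and 40.4% and 30.2% did not overlap. The median log2 difference was -0.29 over all genes and 0.19 over the protein-coding ones. For TRA2B the log2 value was 0.04 with scaling by library size alone and 0.58 without K700E nuclear library 2, where it passed (adjusted p = 0.0249).

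**Figure D2:**
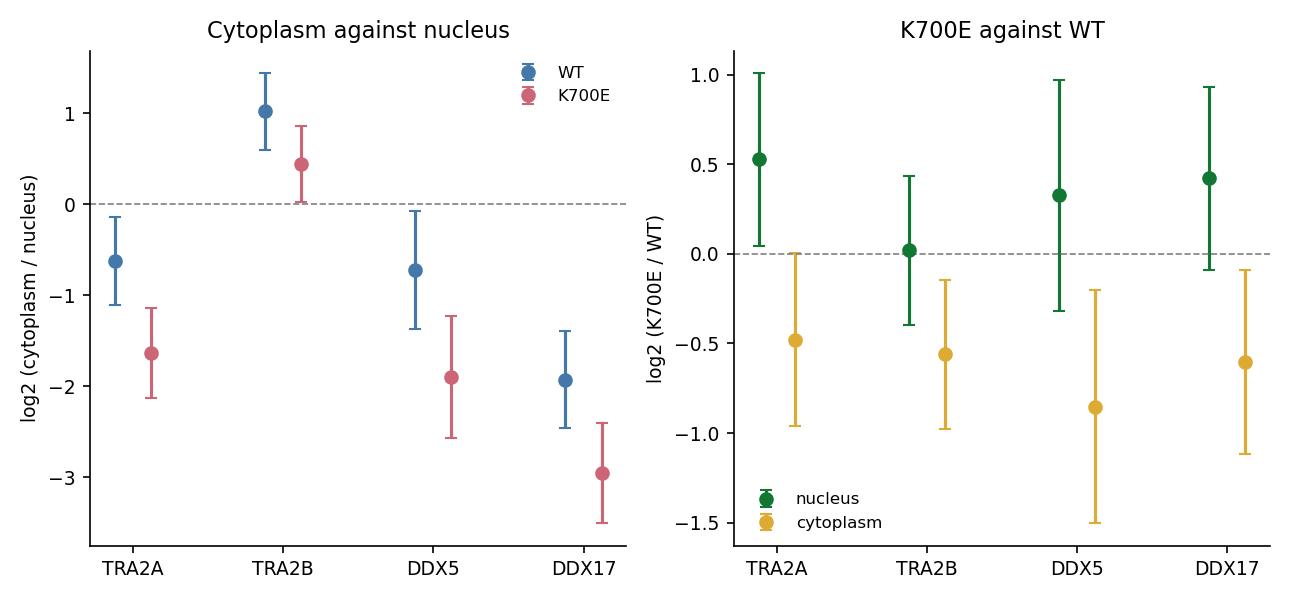
Log2 differences from edgeR, with 95% intervals derived from its F tests, for the 4 genes (x axis): cytoplasm over nucleus for WT and K700E (left), and K700E over WT in nucleus and cytoplasm (right). On the left each K700E point lies below its WT point, with TRA2B alone above 0, and on the right cytoplasmic points lie between -0.85 and -0.48 and nuclear points between 0.02 and 0.53.

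The cytoplasm-to-nucleus ratio was lower with K700E than with WT for both members of both pairs, but none of the 4 differences passed the edgeR test (adjusted p = 0.980 for each). The log2 change, K700E minus WT, was -1.0 ± 0.32 (SE, 95% interval -1.69 to -0.32) for TRA2A and -0.58 ± 0.28 (-1.17 to 0.01) for its paralog TRA2B. It was -1.18 ± 0.43 (-2.09 to -0.26) for DDX5 and -1.03 ± 0.34 (-1.75 to -0.30) for DDX17. These are ratio changes of 2.0-fold, 1.5-fold, 2.3-fold and 2.0-fold. Of all genes tested, 46.3% had a value below 0, 14.3% one of -0.5 or lower and 5.88% one of -1 or lower, and the median was 0.05. Since the genes were picked for this quantity, nothing is read from how many fell in those classes. At an unadjusted p under 0.05 the test held 3 of the 4 genes and 672 of all genes (3.30%), and edgeR called 0 of 20394 genes after adjustment, limma voom 0 and DESeq2 3, none of them a member.

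The sign of the change stayed negative for each gene in all 25 other fits. TRA2A ranged from -1.22 to -0.71, TRA2B from -0.72 to -0.33, DDX5 from -1.75 to -0.87 and DDX17 from -1.24 to -0.79. The DDX5 value farthest from 0 came without WT nuclear library 1. Correction for each library's GC trend gave -0.74, -0.34, -1.07 and -0.96 for TRA2A, TRA2B, DDX5 and DDX17, whose transcripts have 41.7%, 41.8%, 44.7% and 47.4% GC against a median of 49.2% for coding genes. With both nuclear libraries numbered 2 left out, a choice made after seeing the data, the values were -0.71, -0.42, -0.92 and -0.80. With both nuclear libraries numbered 1 left out they were -1.14, -0.70, -1.63 and -1.24.

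**Figure D3:**
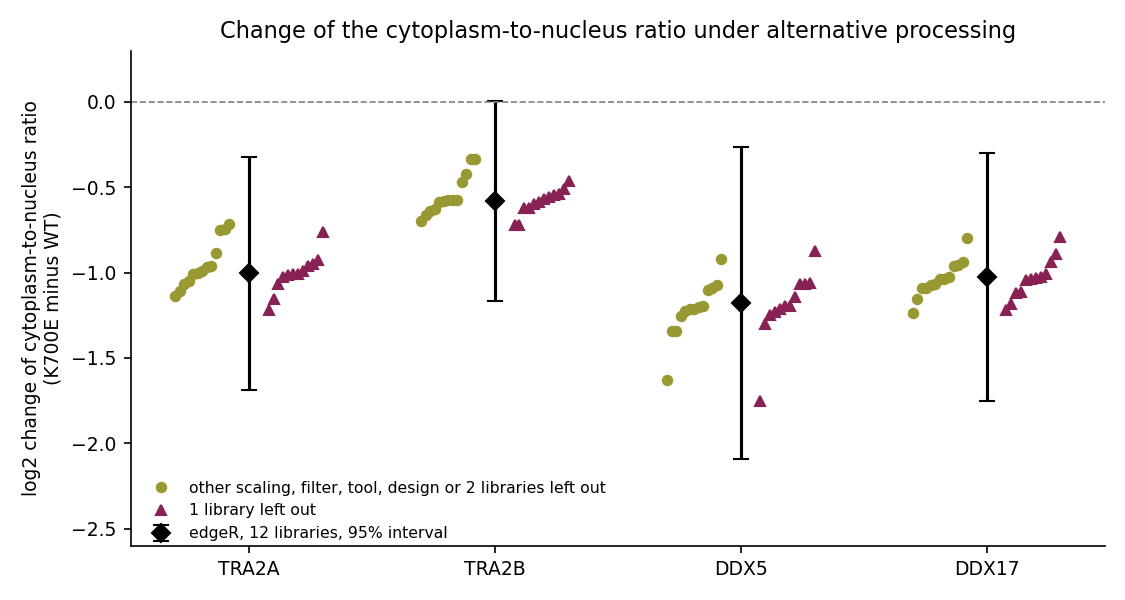
Log2 change of cytoplasm-to-nucleus ratio, K700E minus WT (y axis), for each gene (x axis): the edgeR value over 12 libraries with its 95% interval (black), other scalings, filters, tools, designs or pairs of libraries left out (green points) and single libraries left out (purple triangles). All points lie below 0, and the lowest is DDX5 at -1.75, without WT nuclear library 1.

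Within the cytoplasm, all 4 mRNAs had lower levels with K700E in 3 of 3 libraries, with no overlap, as did 6.98% of all genes tested. The log2 differences were -0.48 ± 0.23 (SE) for TRA2A, -0.56 ± 0.20 for TRA2B, -0.85 ± 0.31 for DDX5 and -0.60 ± 0.24 for DDX17. None passed (edgeR adjusted p = 1 for each), 3 of 4 had an unadjusted p under 0.05, against 4.56% of genes, and neither DESeq2 nor limma voom called any of them. edgeR called 1 gene in all (0.00490%), a gene ID without a symbol. CEP95, which shares exonic bases with DDX5, differed by -0.09 ± 0.21 in the same comparison, at 128 ± 11.2 CPM with WT and 120 ± 20.4 CPM with K700E.

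Levels of mitochondrially encoded mRNAs, which mark mitochondria carried in a fraction, varied among the same libraries. Their 13 genes summed to 3777, 11490 and 15730 CPM of the unscaled library total in WT cytoplasmic libraries 3, 2 and 1, and to 5254, 6190 and 6115 in K700E libraries 1, 2 and 3. All 13 had a negative change of ratio, with a median of -0.93, where 46.3% of all genes were below 0, and none passed. In the cytoplasm the log2 difference, K700E minus WT, was also below 0 for all 13, with a median of -0.90. WT cytoplasmic library 3 had the least mitochondrial mRNA of the 6. Without that library the cytoplasmic differences of TRA2A, TRA2B, DDX5 and DDX17 were -0.54, -0.57, -0.88 and -0.70. The part of the makeup of the cytoplasmic fraction in the result was not tested.

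Within the nucleus the K700E and WT libraries overlapped for 3 of the genes. The log2 differences were 0.53 ± 0.23 (SE) for TRA2A, 0.02 ± 0.20 for TRA2B and 0.33 ± 0.31 for DDX5. DDX17 was higher with K700E in 3 of 3 libraries without overlap, like 3.91% of all genes, by 0.42 ± 0.24. None passed (edgeR adjusted p = 0.659, 0.980, 0.752 and 0.659), 1 of 4 had an unadjusted p under 0.05, against 6.81% of genes, and neither DESeq2 nor limma voom called any. edgeR called 0 genes here, where 1389 had an unadjusted p under 0.05. With both nuclear libraries numbered 2 left out the values were 0.24 for TRA2A, -0.14 for TRA2B, 0.07 for DDX5 and 0.19 for DDX17. For DDX5 the difference was 0.90 without WT nuclear library 1. Without nuclear library 1 of both constructs the values were 0.66 for TRA2A, 0.14 for TRA2B, 0.78 for DDX5 and 0.63 for DDX17, and none passed. The 95% intervals over all libraries were 0.05 to 1.01, -0.39 to 0.44, -0.32 to 0.97 and -0.09 to 0.93 for TRA2A, TRA2B, DDX5 and DDX17.

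The balance of the paralogs was then taken within each library, where no scaling between libraries is needed. In counts not corrected for length, TRA2A outnumbered TRA2B in every nuclear library and was outnumbered in every cytoplasmic one. Per kilobase of all annotated exons TRA2A was above TRA2B in the cytoplasm too, at 79.7 against 48.6 CPM with WT and 57.2 against 32.9 CPM with K700E. The leading TRA2 paralog in the cytoplasm therefore rested on the length used. A fixed length cancels in the difference between fractions. The log2 ratio of TRA2A to TRA2B counts was 0.20, 0.61 and 1.04 in WT nuclei (0.62 ± 0.42, SD, n = 3), 0.54, 1.30 and 1.42 in K700E nuclei (1.09 ± 0.48), -1.01, -0.95 and -1.13 in WT cytoplasm (-1.03 ± 0.09) and -0.84, -0.99 and -1.01 in K700E cytoplasm (-0.95 ± 0.09). As a share of the pair's counts, TRA2A took 60.4% and 67.8% in WT and K700E nuclei and 32.9% and 34.2% in the corresponding cytoplasm.

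The helicase pair was arranged the other way round. DDX5 made up 36.5% of the pair's counts in nuclei with either construct and 58.8% and 54.6% in WT and K700E cytoplasm. Its log2 ratio to DDX17 was -0.29, -1.01 and -1.13 in WT nuclei (-0.81 ± 0.45, SD, n = 3), -0.54, -0.89 and -0.98 in K700E nuclei (-0.80 ± 0.23), 0.42, 0.47 and 0.64 in WT cytoplasm (0.51 ± 0.12) and 0.31, 0.20 and 0.28 in K700E cytoplasm (0.26 ± 0.06). Thus the fractions did not overlap for either pair or construct.

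**Figure D4:**
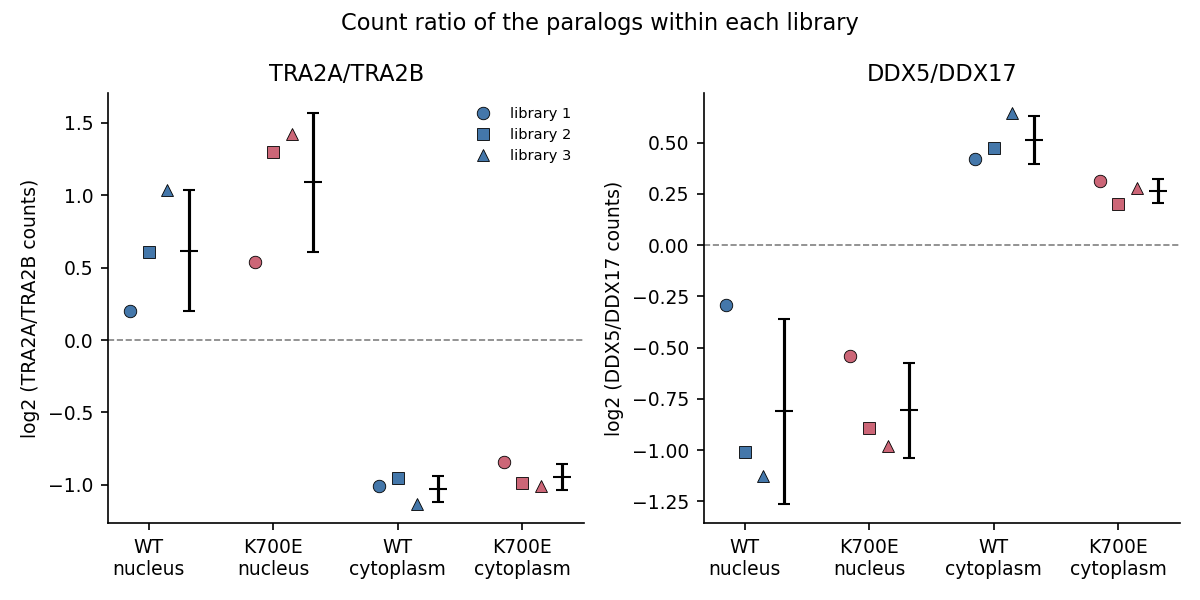
Log2 ratio of the paralogs' counts in each library (y axis) for TRA2A over TRA2B (left) and DDX5 over DDX17 (right) in the 4 groups (x axis), with mean and SD in black and a dashed line at equal counts. Every nuclear TRA2 point lies above 0 and every cytoplasmic one below it, and for the helicases the reverse holds. The counts are not corrected for length.

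Between fractions the TRA2A to TRA2B ratio was 3.13-fold lower in the cytoplasm with WT (log2 -1.65 ± 0.25, SE) and 4.10-fold lower with K700E (-2.03 ± 0.28). The DDX5 to DDX17 ratio was 2.50-fold higher with WT (1.32 ± 0.27) and 2.10-fold higher with K700E (1.07 ± 0.14). For each the exact two-sided permutation test gave p = 0.1 (0.16 adjusted over 8 comparisons), the smallest that 3 against 3 libraries allow.

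Between constructs the paralog ratios overlapped in 3 of the 4 comparisons. For TRA2A to TRA2B the log2 difference, K700E minus WT, was 0.47 ± 0.37 (SE) in the nucleus (exact permutation p = 0.3) and 0.08 ± 0.07 in the cytoplasm (exact permutation p = 0.5). For DDX5 to DDX17 it was 0.00 ± 0.29 in the nucleus (exact permutation p = 1) and -0.25 ± 0.08 in the cytoplasm, where K700E libraries were all below WT ones (exact permutation p = 0.1, adjusted 0.16). The change of cytoplasm-to-nucleus ratio differed within the pairs by -0.39 ± 0.37 (TRA2A minus TRA2B) and -0.25 ± 0.30 (DDX5 minus DDX17). These are values with no test.

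The summed level of each pair gives the total of the related mRNAs. TRA2A and TRA2B together were at 714 ± 45.3 CPM (SD, n = 3) in WT nuclei, 908 ± 221 in K700E nuclei, 852 ± 54.0 in WT cytoplasm and 589 ± 17.4 in K700E cytoplasm. DDX5 and DDX17 together were at 3631 ± 1445, 4745 ± 166, 1432 ± 117 and 855 ± 154 CPM in the same order. In the cytoplasm every member was already lower with K700E in 3 of 3 libraries without overlap, so both sums had to be lower too. The direction of the sums is therefore no further result. For TRA2 they ran from 576 to 609 CPM with K700E against 819 to 914 CPM with WT. For the helicases they ran from 696 to 1004 CPM with K700E against 1320 to 1554 CPM with WT.

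Related genes were read from lists chosen for their function, with earlier results of these data already known. Their counts and medians are therefore a description and no independent support for the values of the members. Of all genes tested, 27.1% were called higher and 40.0% lower in WT cytoplasm. SR proteins are the splicing activators to which TRA2 proteins are related. With WT, 3 of 12 were called higher and 2 lower in the cytoplasm by edgeR, SRSF3 and SRSF8 being highest (log2 2.0 ± 0.30 and 1.94 ± 0.21, SE) and SRSF11 and SRSF5 lowest (-2.36 ± 0.24 and -1.45 ± 0.37). With TMM scaling the change of ratio was below 0 for 12 of 12, with a median of -0.56, none called, against 46.3% of all genes. The value nearest 0 was -0.05, less than the 0.10 by which library-size scaling moved the median of all genes. The smallest p-values in the list belonged to SRSF1 (-1.48 ± 0.46) and SRSF2 (-1.03 ± 0.44), both adjusted p = 0.980 in edgeR.

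A chosen list of splicing regulators and other genes known to limit their own mRNA held 21 genes, of which 20 were tested. With WT, 7 were called higher in the cytoplasm and 10 lower, from HNRNPA1 (log2 1.94 ± 0.26, SE), an hnRNP protein that represses exons, and SNRPB (1.89 ± 0.38), a core Sm protein, to RBM5 (-2.88 ± 0.24) and OGT (-2.40 ± 0.22), the O-GlcNAc transferase. Over all genes tested, 27.1% were called higher and 40.0% lower. The list's change of ratio was below 0 for 16 of 20, against 46.3% of all genes, with a median of -0.43, and none was called. The smallest p-values were those of HNRNPD (-0.95 ± 0.36) and OGT (-0.72 ± 0.30).

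SR kinases and TRA2-binding proteins, such as the CLK kinases that phosphorylate SR proteins, had 5 genes called higher and 3 lower in WT cytoplasm among 13. Over all genes these shares were 27.1% and 40.0%. The phosphatase subunits PPP1CA (log2 2.70 ± 0.31, SE) and PPP1CB (2.06 ± 0.33) were highest, and CLK1 (-2.23 ± 0.24) and CLK4 (-1.57 ± 0.25) lowest. The list's median change of ratio was -0.14, with 10 of 13 below 0, against 46.3% of all genes. SAFB2 (-0.51 ± 0.32) and CLK4 (-0.37 ± 0.35) had the smallest p-values. Of 7 genes with exons known as TRA2 targets, CHEK1 (1.54 ± 0.21) and NAP1L1 (1.35 ± 0.28) were called higher and SMC4 (-0.88 ± 0.25) and NASP (-0.74 ± 0.25) lower in WT cytoplasm. The median change of these 7 was -0.14, with 4 of 7 below 0, against 46.3% of all genes. The smallest p-values went to HIPK3 (-0.44 ± 0.49) and SMC4 (-0.26 ± 0.36).

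Other DEAD-box helicases were divided between the fractions, as were all genes, of which 27.1% were called higher and 40.0% lower in WT cytoplasm. Of 32 tested, 13 were called higher in WT cytoplasm, led by DDX6, a translational repressor (log2 2.03 ± 0.31, SE), and DDX28 (2.01 ± 0.36), and 9 lower. The lowest were DDX47 (-4.82 ± 0.52) and EIF4A1 (-4.55 ± 0.40), at only 0.536 and 1.79 CPM in WT cytoplasm. Both overlap another gene on the same strand, APOLD1 and the readthrough gene SENP3-EIF4A1, so the counts of DDX47 and of EIF4A1, a translation initiation factor, are uncertain. The list's median change of ratio was -0.13, with 19 of 32 below 0, against 46.3% of all genes. DDX24 (2.43 ± 1.07) and DDX47 (-1.59 ± 0.80) had the smallest p-values, none called. DDX24 was at only 0.720 CPM in K700E nuclei and 3.67 CPM in WT nuclei, and these libraries overlapped.

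Partners of DDX5 and DDX17 in microRNA processing, transcription and splicing gave 6 genes called higher and 5 lower of 16 in WT cytoplasm. Over all genes these shares were 27.1% and 40.0%. HNRNPH2 was highest (log2 2.98 ± 0.31, SE), and ESR1 (-4.00 ± 0.95, at 0.0771 CPM in WT cytoplasm) and DGCR8 (-2.36 ± 0.24), the RNA-binding subunit of the microprocessor, were lowest. The partners' change of ratio had a median of -0.19, with 11 of 16 below 0, against 46.3% of all genes. The smallest p-values were those of HNRNPH1 (-0.47 ± 0.31) and HNRNPH2 (-0.54 ± 0.41). The median over TRA2A, TRA2B, DDX5 and DDX17 was -1.02. These genes were picked for this quantity, so its distance from the medians of the lists is no result.

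**Figure D5:**
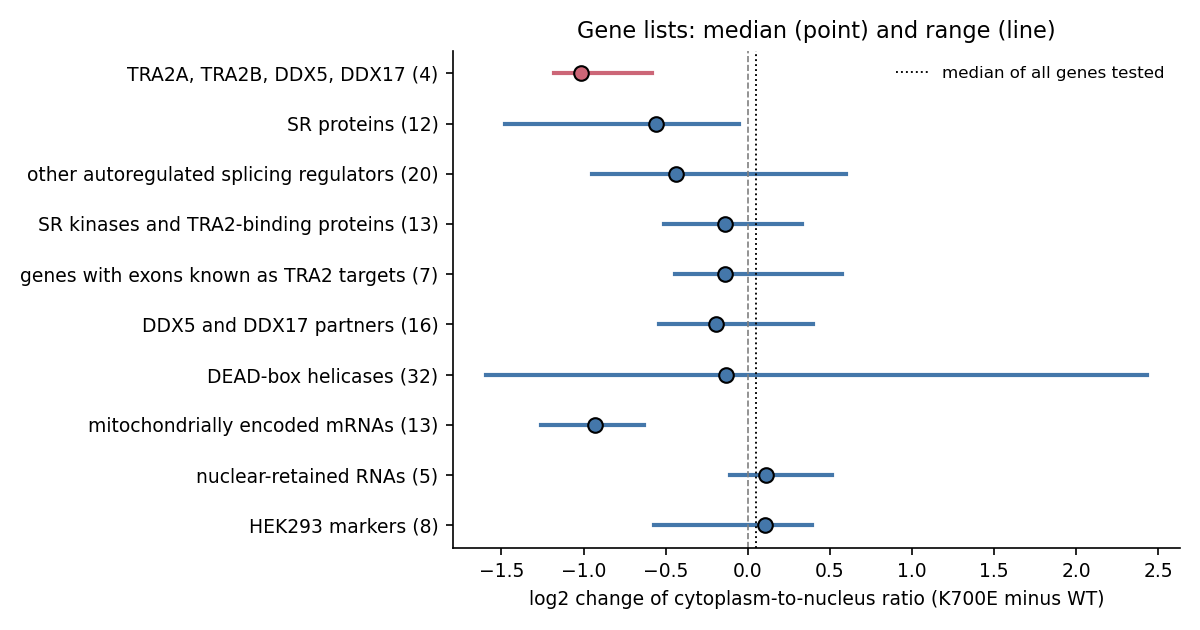
Median (point) and range (line) of the log2 change of cytoplasm-to-nucleus ratio, K700E minus WT (x axis), for the 4 genes (red) and each gene list (blue), with the number of genes tested in brackets and a dotted line at the median of all genes. The SR protein line ends at -0.05 and the mitochondrial mRNA line lies wholly below 0, and no gene shown passed the test. The genes in red were picked for this quantity, so their distance from the lists is no result.

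The genes with the most similar profile over the 12 libraries were named by Pearson correlation of log2 CPM among 11665 genes that had a symbol and averaged 5 CPM or more, as a description. These were CDC16 (r = 0.97), RYK (0.97) and ATAD5 (0.96) for TRA2A, and FAM83D (0.96), CCNB1 (0.96) and INTS14 (0.96) for TRA2B. DDX5 was closest to FBXO9 (0.98), MAT2A (0.97) and PCF11 (0.96), and DDX17 to ARMC8, ANKRD10-IT1 and ZDHHC6 (0.99 each). Between the members r was -0.60 for TRA2A and TRA2B and 0.91 for DDX5 and DDX17. Across the pairs it was 0.91 for TRA2A with DDX17, 0.78 for TRA2A with DDX5, -0.39 for TRA2B with DDX5 and -0.70 for TRA2B with DDX17. By rank among those genes, DDX17 was number 55 for DDX5 and DDX5 number 1060 for DDX17. The libraries share fraction and construct within a group, and the difference between fractions enters every value of r.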

How the data were processed

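Nuclear and cytoplasmic RNA of HEK293T cells was sequenced in 12 libraries. The authors deposited raw read counts per gene, 1 file per library, with 67049 gene IDs. HISAT2 and DESeq are named without versions per the submitters' processing notes. Which program counted reads, and on which genome build and annotation, is not given in the sources used here. IDs were matched without version to symbols (60463) and to GENCODE 29 on GRCh38 (58440).

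Groups were formed by construct and fraction. Low genes were removed with filterByExpr (at least 10 counts, total 15) and libraries were scaled by TMM. All 12 libraries entered 1 model with a term for each group, tested by quasi-likelihood F tests in edgeR 4.0.16 (R 4.3.3), with Benjamini-Hochberg adjustment over 20394 genes and a threshold of 0.05. Levels are TMM-scaled CPM and intervals are at 95%. A prior count of 2 was used only for log2 CPM, which entered the correlations and the GC trends. The SE of an edgeR log2 difference was derived as its absolute value divided by the square root of F. Its interval was built from that SE with a t quantile. Alternatives used limma 3.58.1 and DESeq2 1.42.0. Ratios of paralogs came from counts and were compared by exact permutation (scipy 1.17.1). Coding sequences were aligned with Biopython 1.88. The pipeline was tested on simulated data.

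The members and lists were chosen with earlier results of these data known. Named were the 4 members, overlapping genes, SF3B1, for each list the 2 called genes farthest each way in WT and the 2 with the smallest p in the change of ratio, and the 3 nearest profiles per member. A gene that this rule names is not reported here. Alternatives were other scalings, filters, tools and designs, a GC correction and single libraries left out. Leaving out both nuclear libraries 1, both nuclear libraries 2 or both cytoplasmic libraries 3 was added after seeing the data.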

Additional observations from a re-analysis of the deposited data

How the results depend on the processing

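Over 400 alternative values of the 4 genes in the 5 comparisons, 371 kept direction and side of the threshold, 17 lost a call, 5 gained one and 7 changed sign. The number of genes called with WT between fractions was 2 rather than 4 without a filter or with both cytoplasmic libraries 3 left out, and 2 to 4 with single libraries left out. The number was 3 to 4 with K700E and 0 in the other comparisons. The calls lost were those of DDX5 (12 of 20 alternatives, log2 -0.79 to -0.10 in those) and TRA2A (5 of 20, -0.61 to -0.43) with WT. The calls gained were of TRA2B with K700E, under GC correction (0.58), block with GC correction (0.58), limma voom (0.45), without K700E nuclear library 2 (0.58) and without both nuclear libraries 2 (0.57). The nuclear difference of TRA2B changed sign with library-size scaling (-0.052), GC correction (-0.25), block with GC correction (-0.25), without both nuclear libraries 2 (-0.14) and with 1 nuclear library left out, WT 2 (-0.016), WT 3 (-0.051) or K700E 2 (-0.094), the highest such value being 0.16. The nuclear DDX5 to DDX17 ratio difference, 0.00 over all libraries, changed sign without K700E nuclear library 1 (-0.13) and WT nuclear libraries 2 (-0.10) and 3 (-0.15). The causes were not tested. Leaving out single libraries gave ratio differences between fractions of -1.85 to -1.44 and -2.31 to -1.87 for TRA2A to TRA2B, with WT and K700E, and 1.16 to 1.58 and 0.98 to 1.20 for DDX5 to DDX17. Between constructs these ranges were 0.27 to 0.75 and 0.03 to 0.12 (TRA2 pair, nucleus and cytoplasm), -0.15 to 0.26 and -0.29 to -0.18 (DDX pair), and for the change -0.66 to -0.18 and -0.51 to -0.09.

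Replicate numbers were not taken to pair the libraries, since not every pair correlated above 0.1. Same-numbered libraries of the 2 fractions correlated from -0.17 to 0.093 in their deviations, 0 of 6 above 0.1, those of the 2 constructs from 0.027 to 0.43, 4 of 6 above 0.1, and 10 of 24 comparisons were best with the own number. With the number as a replicate block the members called with WT were 3, the DDX5 call being lost (log2 -0.64, adjusted p = 0.0752), and the members called with K700E were 3. Blocking by construct and number together, which could not be fitted between constructs, also lost the DDX5 call (-0.56, adjusted p = 0.103). No other call of a member changed under either block, and edgeR then called 0 genes between constructs in the cytoplasm.

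Between fractions edgeR called 13680 genes with WT (5517 higher, 8163 lower) and 13448 with K700E (5723 and 7725). With 1 CPM required in all libraries these were 7941 (3867 and 4074) and 7889 (3951 and 3938). Library-size scaling gave 3775 and 10263 with WT and 4215 and 9460 with K700E, and upper-quartile scaling 4229 and 9660, and 4423 and 9249. They moved the median of all genes by -0.52 and -0.41, and -0.38 and -0.37. The filter moved it by -0.32 in both, no filter by 0.13 with WT and DESeq2 by -0.11 with K700E. Between constructs, in the nucleus, the cytoplasm and the change, no filter gave 36, 85 and 31 calls and DESeq2 gave 1, 13 and 3, against 0, 1 and 0. Single libraries left out gave 0 to 1, 0 to 2 and 0 to 1. The lowest count of a member in any library was 2408, and the biological coefficient of variation was 0.181 (TRA2B) to 0.267 (DDX5), against 0.306 over all genes.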
